A study of Gallus gallus with 9 samples.

Results

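The genes described here encode the protein complexes that copy DNA: the origin recognition complex (ORC), the MCM helicase and its relatives, the licensing and firing factors, GINS and CDC45, the clamp loader RFC, the replicative polymerases, the single-strand binding protein RPA, and the clamp, flap nuclease and ligase. Of 45 listed genes, 39 were measured by at least 1 probe set that the platform annotation ties to a single gene symbol, out of 13009 genes measured in all. MCM4, MCM7, GINS2, GINS4, CDC6 and POLD1 were not measured under such a symbol and have no value here. The rule lists the members by complex and sets no threshold on a measured value, but the members were chosen with earlier results of these data known. Of several probe sets of a gene the brightest on average over the 9 arrays was used.

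In a dividing cell ORC marks origins, and CDC6 and CDT1 help it to load the MCM2 to MCM7 ring around DNA before S phase. The kinase CDC7, together with CDK activity, then lets CDC45 and GINS join the ring as the active helicase, while geminin (GMNN) blocks CDT1 from loading a further ring. Polymerase alpha with its primase starts each strand, RFC loads the sliding clamp PCNA, polymerases delta and epsilon extend, RPA covers single-stranded DNA, and FEN1 and LIG1 finish the lagging strand. In the chick embryo primordial germ cells migrate to the gonad and divide there before they enter meiosis or mitotic arrest.

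The samples were cells of the gonad of WL chicken embryos at 6.5 days, separated by magnetic-activated cell sorting. The PGCs fraction (PGC commonly stands for primordial germ cell) was measured on 3 arrays, and the fraction labelled GSCs, which the labels do not spell out, on 6 arrays. No genetic change or treatment is given for either fraction. The sources used here do not give the sorting antigen, the sex of the embryos or how many were pooled. Nothing says that replicates came from separate pools, so the p-values reflect the spread among these preparations alone, and that spread may be technical.

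All values are log2 expression values on an Affymetrix GeneChip Chicken Genome Array, 1 array per preparation, so a difference of 1 is a 2-fold difference. PGC replicate 3 stood nearer to the GSC arrays (r 0.956 to 0.969 over all probe sets) than PGC replicate 1 did (r 0.930 to 0.941), and arrays within GSC correlated at 0.987 to 0.996. Of the germ cell markers 12 of 12 were higher in PGC, as the label of that fraction has it, among them the helicase gene DDX4 with 9.40, 9.51 and 8.36 in PGC replicates 1, 2 and 3, against 4.31 to 4.82 in GSC. Averaged over the list, germ cell markers stood at 7.88, 7.69 and 6.93 in PGC replicates 1, 2 and 3, against 3.88 to 4.15 in GSC. Gonadal somatic markers were lower in PGC in 11 of 13 measured (mean 5.04, 5.61 and 6.64 in the 3 PGC arrays, against 7.26 to 7.43 in GSC), and none of them lay below background on every array. Markers of mesonephric epithelium were higher in PGC in 6 of 9 and lower in 3, and their summed level was 9.89 to 10.44 (log2 of the sum) in PGC, against 7.62 to 8.10 in GSC. Endothelial, erythroid and leukocyte markers were lower in PGC in 6 of 8, 3 of 6 and 3 of 7, with 1 leukocyte marker higher, and their summed levels were 6.97 to 8.49, 12.73 to 13.16 and 6.82 to 7.46 in PGC, against 8.97 to 9.56, 13.18 to 13.37 and 7.57 to 7.86 in GSC. GATA3 (mesonephric), EMCN (endothelial) and SPI1 (leukocyte) lay below background on all 9 arrays. The part of these other cells in the results on replication genes was not tested.

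Replication genes were higher in PGC in 17 of 39 and lower in 1, and 21 did not pass (limma with Benjamini-Hochberg adjustment over all 13009 genes, called at an adjusted p under 0.05). Over all genes, 22.5% were called higher and 19.5% lower, so that 43.6% of the replication genes stood against 22.5%. Dim genes are part of that share: among the 7609 genes whose mean lay within the range of the members' means, 27.5% were higher and 25.8% lower. The median log2 fold change of the replication genes was 0.19, against -0.02 for all genes. Most changes were small: only 5 of the 39 were called higher at 2-fold or more (ORC2, ORC6, CDC7, RFC3 and PRIM2), a share of 12.8% against 8.05% of all genes. In 11 of the 39 every PGC array lay above every GSC array, against 19.7% of all genes, and in 1 (GINS3) every PGC array lay below, against 16.7%. In sorted preparations measured in bulk, more cells of a type and more RNA per cell cannot be told apart.

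The count leaned on PGC replicate 1, which held the highest PGC value in 14 of the 17 genes called higher. Without that array 7 of 39 were called higher (17.9%), when 17.7% of all genes were. Leaving out PGC replicate 2 gave 12 of 39 (30.8%), against 20.1% of all genes. Without PGC replicate 3, the array nearest to GSC, 19 were called higher and 3 lower, against 25.5% and 22.9% of all genes. Averaged over the 39 genes, PGC replicates 1, 2 and 3 stood 0.52, 0.32 and 0.22 above the GSC mean on the log2 scale, and the 6 GSC arrays between -0.12 and 0.11. That order of the PGC arrays is also the order of their mean germ cell marker level, but it did not hold throughout the set. Among the 17 genes called higher, PGC replicate 3 was the lowest PGC array in 10 and PGC replicate 2 in 7. By complex, the order held for the averages of ORC, licensing and firing, RFC and RPA, and not for the others (MCM2 to MCM7: 0.23, 0.07 and 0.14). Whether germ cell content played a part was not tested. ORC2, ORC6, MCM8, CDT1 and RFC3 kept their call under all 19 alternative settings.

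**Figure D1:**
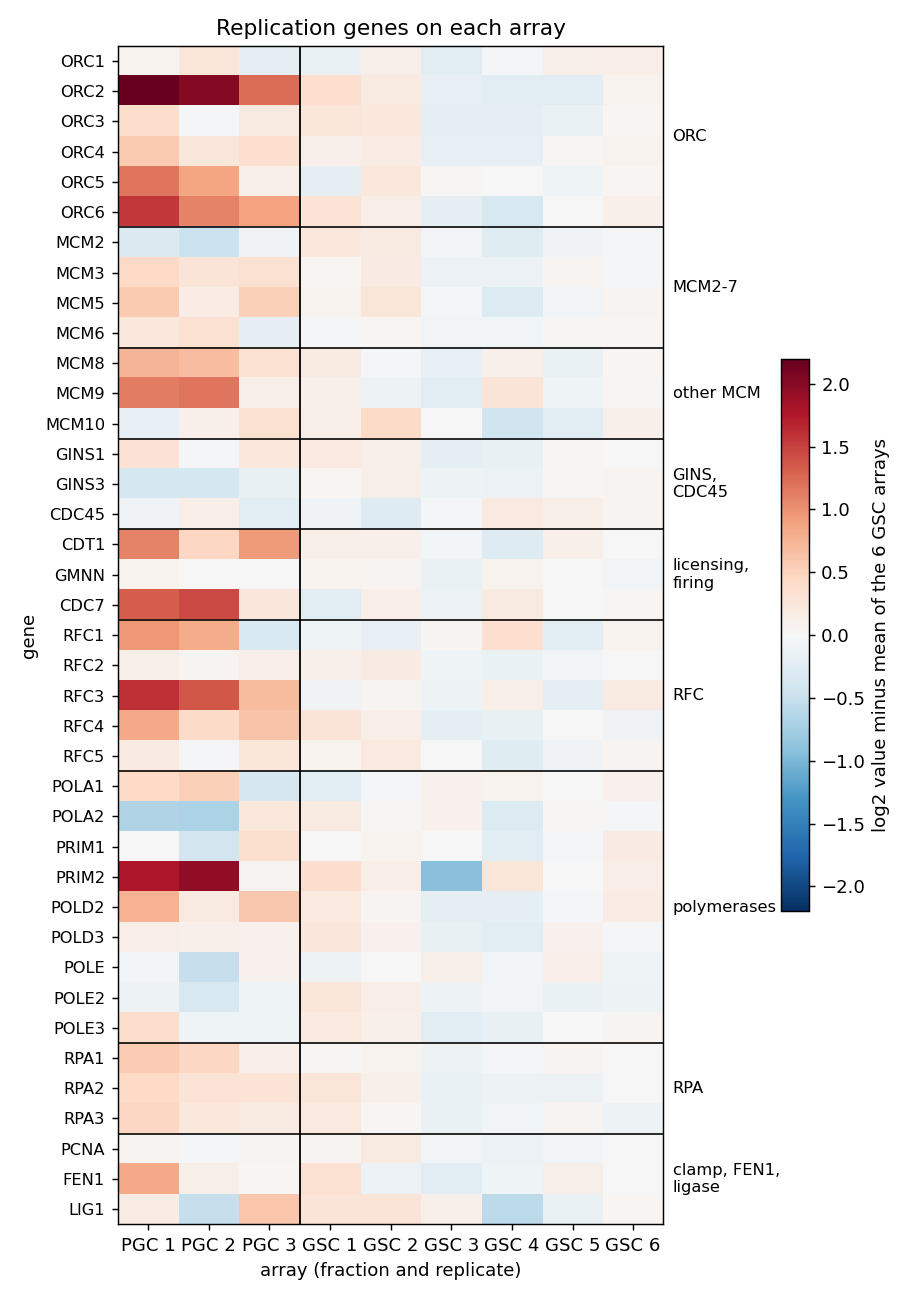
Each of the 39 measured replication genes (rows, grouped by complex) on each array (columns), as log2 value minus the gene's mean over the 6 GSC arrays. Red is above and blue below that mean; ORC2, ORC6, RFC3, CDC7 and PRIM2 stand out in PGC replicates 1 and 2, and PRIM2 and CDC7 are much paler in PGC replicate 3.

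The origin recognition complex held the gene with the largest fitted change, and its subunits did not move alike. All 6 subunit genes were measured, of which 4 were higher in PGC, 0 were lower (0 also at an unadjusted p under 0.05, limma) and 2 did not pass, with a median log2 fold change of 0.56. This count and those of the complexes below rest on few genes each, and stand beside 22.5% higher and 19.5% lower over all genes. ORC2, a core subunit of the complex, measured 7.52, 7.02 and 6.23 in PGC replicates 1, 2 and 3, against 4.77 to 5.37 in GSC (median 4.95). All PGC arrays lay above all GSC arrays, but the PGC arrays were spread over more than 1 log2 unit. ORC2 averaged 6.92 ± 0.65 in PGC (SD, n = 3) and 5.00 ± 0.25 in GSC (SD, n = 6), or 3.78-fold higher in PGC (1.92 ± 0.24 on the log2 scale, SE, limma adjusted p = 1.03e-04). Leaving out single arrays moved that change between 1.62 and 2.27.

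ORC6, the small subunit that binds the core, measured 8.16, 7.68 and 7.48 in the PGC arrays, against 6.24 to 6.89 in GSC (median 6.65). The groups did not overlap, and ORC6 was 2.27-fold higher in PGC (1.18 ± 0.17 SE on the log2 scale, limma adjusted p = 2.80e-04). Its other probe set gave nearly the same size (1.20 ± 0.19, adjusted p = 6.82e-04 over all probe sets). ORC5, an ATP-binding subunit, measured 6.45, 6.14 and 5.40 in the PGC arrays, against 5.08 to 5.51 in GSC (median 5.29), so that PGC replicate 3 lay within the GSC range. Its rise of 0.72 ± 0.19 (adjusted p = 0.0111) lost its call without PGC replicate 1 (0.49) or PGC replicate 2 (0.65).

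ORC4, another ATP-binding subunit, measured 8.30, 7.96 and 8.09 in PGC, against 7.53 to 7.88 in GSC (median 7.76), a change of 0.40 ± 0.12 (limma adjusted p = 0.0173) that did not pass without PGC replicate 1 (0.31, adjusted p = 0.0922). ORC3, with 6.59, 6.19 and 6.41 in PGC and 6.01 to 6.48 in GSC (median 6.17), did not pass, and its 95% interval ran from -0.13 to 0.50. ORC1, the largest subunit and the one whose level cycles in mammalian cells, did not pass either, at 5.54 ± 0.23 in PGC and 5.49 ± 0.16 in GSC (interval -0.24 to 0.34). A difference of 2-fold in ORC1 or ORC3 lies outside these intervals.

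Among the licensing and firing genes, 2 of the 3 measured were higher in PGC and 1 did not pass. CDT1, which brings the MCM ring to origins, measured 7.92, 7.28 and 7.77 in the PGC arrays, against 6.54 to 6.96 in GSC (median 6.88). It was higher on every PGC array, by 1.78-fold (0.83 ± 0.15 SE on the log2 scale, limma adjusted p = 0.00101), and by 1.24 ± 0.14 on its other probe set (adjusted p = 1.02e-04 over all probe sets). GMNN, which encodes the CDT1 inhibitor geminin, lay at 8.05, 7.97 and 7.95 in PGC, against 7.82 to 8.05 in GSC (median 7.996). The GMNN values overlapped almost wholly, with a log2 fold change of 0.02 and an interval from -0.18 to 0.22.

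CDC7, the kinase that fires loaded origins, measured 6.40, 6.53 and 5.32 in the PGC arrays, against 4.83 to 5.26 in GSC (median 5.08). PGC replicates 1 and 2 lay over 1 log2 unit above every GSC array and PGC replicate 3 only just above them. CDC7 was 2.02-fold higher over all arrays (1.01 ± 0.23 SE, limma adjusted p = 0.00415), and its change was 1.39 without PGC replicate 3. DBF4, the activating partner of CDC7 and no member of the set itself, showed a like pattern with 7.42, 7.58 and 6.23 in PGC, against 5.36 to 5.99 in GSC (1.36 ± 0.26, adjusted p = 0.00143).

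**Figure D2:**
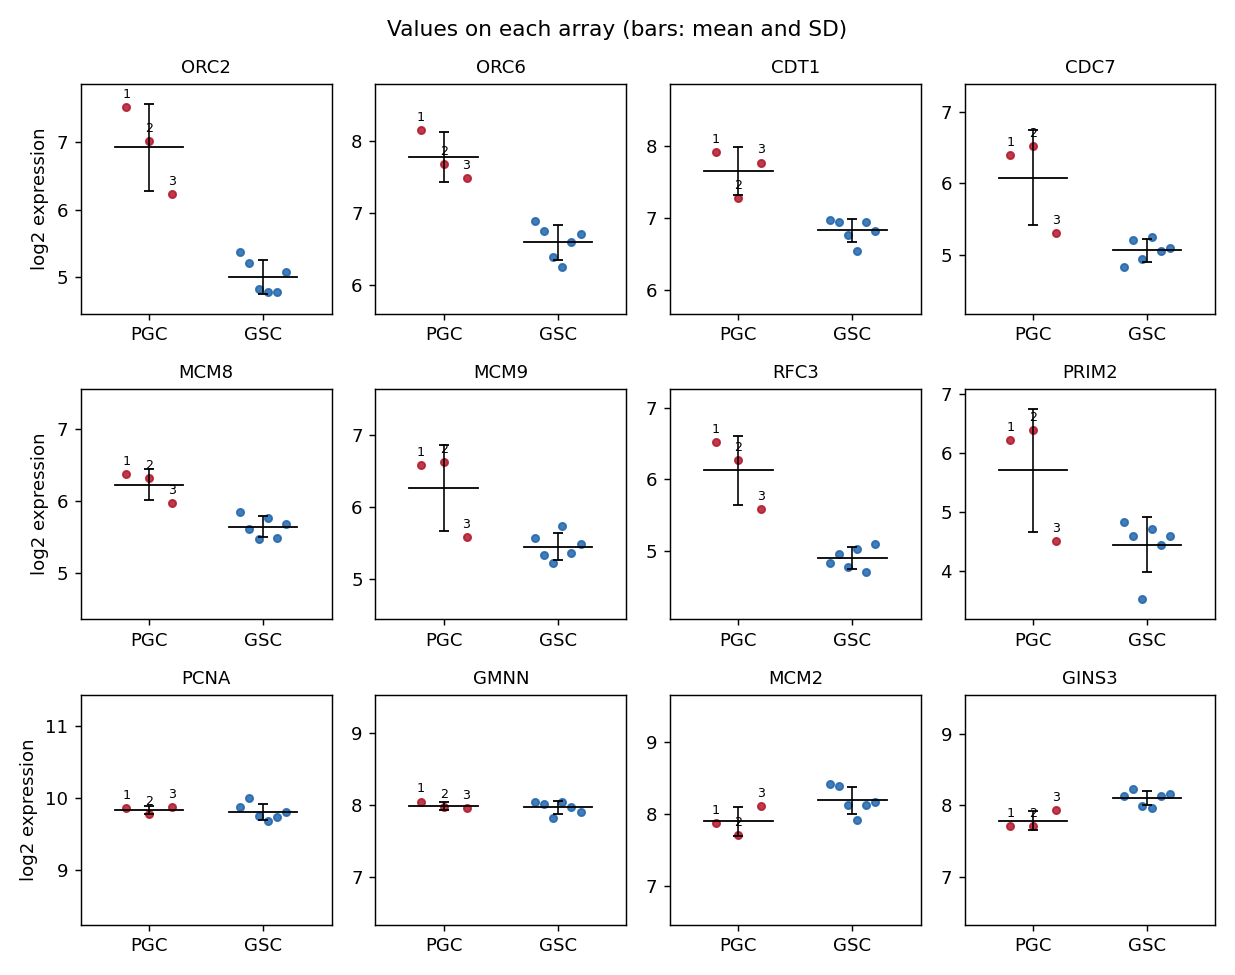
Log2 values of 12 replication genes on every array, PGC (red, replicate number beside each point) left of GSC (blue), with the mean and SD in black and log2 expression on the vertical axis. ORC2, ORC6, CDT1, CDC7, MCM8 and RFC3 show no overlap between fractions, whereas PGC replicate 3 falls among the GSC arrays for MCM9 and PRIM2, and PCNA and GMNN lie level.

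The MCM2 to MCM7 ring was represented by 4 measured genes, of which MCM3 and MCM5 were higher in PGC, 0 were lower (1 at an unadjusted p under 0.05, limma) and MCM2 and MCM6 did not pass. MCM3 measured 6.12, 5.97 and 6.03 in the PGC arrays, against 5.55 to 5.87 in GSC (median 5.69), a small but non-overlapping difference of 0.35 ± 0.10 (limma adjusted p = 0.0153). MCM5 measured 8.04, 7.63 and 7.997 in PGC, against 7.17 to 7.73 in GSC (median 7.48), so that PGC replicate 2 lay inside the GSC range (0.42 ± 0.14, adjusted p = 0.0283). Both calls were lost without PGC replicate 1 (0.31 for MCM3 and 0.34 for MCM5), and that of MCM5 also without PGC replicate 3 (0.37, adjusted p = 0.0705), GSC replicate 3 or GSC replicate 5.

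MCM2 lay on the other side, with 7.87, 7.71 and 8.10 in PGC and 7.92 to 8.42 in GSC (median 8.14). Its log2 fold change of -0.29 ± 0.13 missed the threshold (adjusted p = 0.101) and passed it without PGC replicate 3 (-0.40, adjusted p = 0.0335). MCM6, at 8.06 ± 0.29 in PGC against 7.94 ± 0.06 in GSC, missed the threshold (0.11, interval -0.15 to 0.38). Its probe sets disagreed: the one that stood for the gene gave 0.11, another was called lower (-0.44, adjusted p = 0.0328 over all probe sets) and another gave 0.47 without passing (adjusted p = 0.0642), so the direction for MCM6 is uncertain.

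MCM8 and MCM9, which form a separate helicase used in homologous recombination and needed for germ cell maintenance in mice, were both higher in PGC. MCM8 measured 6.38, 6.32 and 5.97 in the PGC arrays, against 5.46 to 5.84 in GSC (median 5.64). The groups did not overlap, and the difference was 1.50-fold (0.59 ± 0.13 SE, limma adjusted p = 0.00298). MCM9 measured 6.58, 6.63 and 5.58 in PGC, against 5.22 to 5.73 in GSC (median 5.42). Here PGC replicate 3 was level with GSC, and the change of 0.81 ± 0.21 (adjusted p = 0.00956) was 1.16 without that array, but was not called without PGC replicate 1 (0.66) or PGC replicate 2 (0.63). MCM10, a scaffold for helicase activation, measured 4.35, 4.64 and 4.87 in PGC, against 4.10 to 4.95 in GSC (median 4.60), and did not pass. The other probe set of MCM10, below background on average, was called lower (-0.49, limma adjusted p = 0.0193 over all probe sets).

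GINS and CDC45, which complete the active helicase, gave the only replication gene called lower in PGC, and none higher (0 also at an unadjusted p under 0.05, limma). GINS3 measured 7.71, 7.72 and 7.94 in the PGC arrays, against 7.96 to 8.22 in GSC (median 8.13). All PGC arrays lay below all GSC arrays, but PGC replicate 3 only just did, and the change was -0.31 ± 0.10 (adjusted p = 0.0264), a 1.24-fold difference. That call was lost without PGC replicate 1 (-0.27) or PGC replicate 2 (-0.28), without GSC replicate 2, 5 or 6, and with the mean of its probe sets (-0.14, adjusted p = 0.224). The other probe sets in that mean (-0.11 and -0.01) lay below background on average, so the mean says little about GINS3. GINS1, with 6.33, 5.99 and 6.26 in PGC and 5.81 to 6.23 in GSC (median 6.04), and CDC45, at 7.40 ± 0.19 in PGC and 7.45 ± 0.17 in GSC, did not pass. Their intervals ran from -0.10 to 0.44 for GINS1 and from -0.34 to 0.23 for CDC45.

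**Figure D3:**
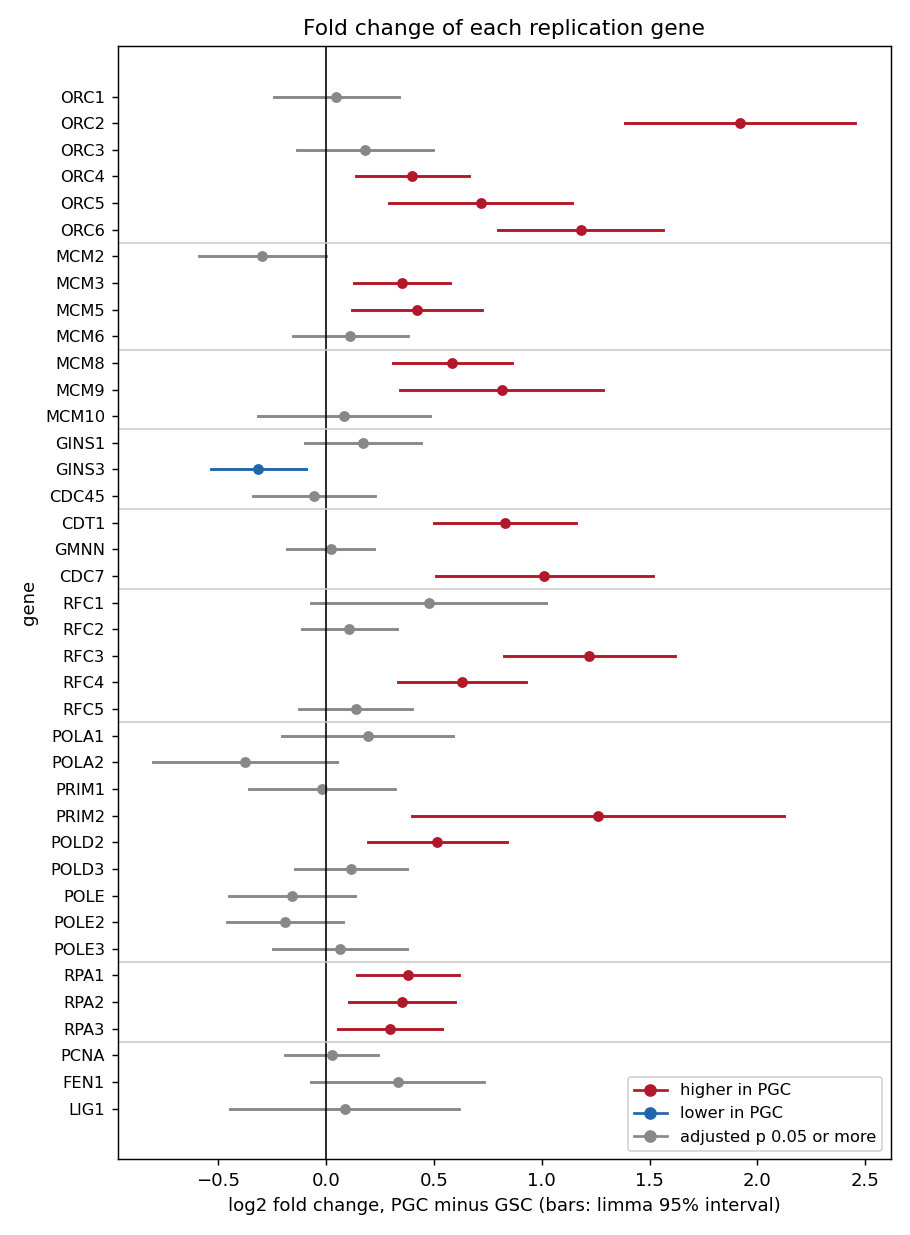
Log2 fold change of PGC over GSC for each measured replication gene, grouped by complex, with the 95% interval from limma. Red genes were called higher, the blue gene (GINS3) lower, and grey genes did not pass; the 5 red points at 1 or beyond are ORC2, ORC6, CDC7, RFC3 and PRIM2, and the RPA genes sit together near 0.3 to 0.4.

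The clamp loader showed a change in 2 of its 5 subunits, both higher in PGC. RFC3 measured 6.52, 6.26 and 5.59 in the PGC arrays, against 4.71 to 5.11 in GSC (median 4.90). No PGC array overlapped GSC, and RFC3 was 2.33-fold higher (1.22 ± 0.18 SE, limma adjusted p = 2.81e-04). RFC4 measured 8.77, 8.35 and 8.56 in PGC, against 7.72 to 8.22 in GSC (median 7.90), a 1.55-fold difference without overlap (0.63 ± 0.14, adjusted p = 0.00304). RFC2 and RFC5, the other small subunits, did not pass, with fitted changes of 0.11 (interval -0.11 to 0.33) and 0.14 (interval -0.12 to 0.40).

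RFC1, the large subunit that is particular to the main clamp loader, measured 7.76, 7.62 and 6.49 in the PGC arrays, against 6.59 to 7.19 in GSC (median 6.80). PGC replicates 1 and 2 lay above every GSC array and PGC replicate 3 below every one, and the change did not pass (0.48 ± 0.25, adjusted p = 0.149). Without PGC replicate 3 it was 0.88 (adjusted p = 5.52e-04). The probe sets of RFC1 also differed in sign, at 0.48, 0.27 and -0.26, and the other probe sets did not pass. PCNA, the clamp that RFC loads, lay at 9.83 ± 0.05 in PGC and 9.80 ± 0.12 in GSC. Its 95% interval ran from -0.19 to 0.24.

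Of the 9 measured genes of the replicative polymerases, 2 were higher in PGC, 0 were lower (0 also at an unadjusted p under 0.05, limma) and 7 did not pass, with a median change of 0.07. PRIM2, the large primase subunit, measured 6.21, 6.39 and 4.50 in the PGC arrays, against 3.51 to 4.82 in GSC (median 4.58). The call (1.26 ± 0.39 SE, adjusted p = 0.0230) rested on PGC replicates 1 and 2, since PGC replicate 3 lay below the GSC median, and it was lost without PGC replicate 1 (1.01) or PGC replicate 2 (0.92). Its other probe set gave 0.76 and did not pass (adjusted p = 0.0608 over all probe sets). PRIM1, the catalytic primase subunit, averaged 5.59 ± 0.38 in PGC against 5.61 ± 0.14 in GSC (not called, interval -0.36 to 0.32).

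POLD2, an accessory subunit of polymerase delta, measured 7.33, 6.75 and 7.14 in the PGC arrays, against 6.34 to 6.76 in GSC (median 6.57). PGC replicate 2 lay just inside the GSC range, and the change of 0.52 ± 0.15 (limma adjusted p = 0.0143) was not called without PGC replicate 1 (0.39). POLA2, the regulatory subunit of polymerase alpha, measured 4.75, 4.72 and 5.65 in PGC, against 5.11 to 5.61 in GSC (median 5.44). PGC replicates 1 and 2 were below all GSC arrays and PGC replicate 3 above them, so that POLA2 did not pass over all arrays (-0.37, adjusted p = 0.148) and passed without PGC replicate 3 (-0.68, adjusted p = 0.00103). POLA1, the catalytic subunit, showed the reverse pattern, at 7.02, 7.11 and 6.20 in PGC and 6.33 to 6.68 in GSC (0.19, adjusted p = 0.424, and 0.48 with adjusted p = 0.00487 without PGC replicate 3). The remaining genes POLD3, POLE, POLE2 and POLE3 had fitted changes between -0.19 and 0.12 and did not pass.

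All 3 genes of RPA were called higher, each by a small amount. RPA1, the large DNA-binding subunit, measured 8.96, 8.86 and 8.54 in the PGC arrays, against 8.29 to 8.47 in GSC (0.38 ± 0.11 SE, limma adjusted p = 0.0142). RPA2 measured 8.75, 8.61 and 8.61 in PGC, against 8.16 to 8.56 in GSC (0.35 ± 0.11, adjusted p = 0.0250), and RPA1 and RPA2 did not overlap between the fractions. RPA3 measured 8.29, 8.08 and 8.04 in PGC, against 7.69 to 8.06 in GSC (0.30 ± 0.11, adjusted p = 0.0486), with PGC replicate 3 inside the GSC range. All 3 calls were lost without PGC replicate 1 (0.30, 0.31 and 0.22), those of RPA1 and RPA3 also without PGC replicate 2 (0.35 and 0.33), that of RPA2 also without GSC replicate 5 (0.33), that of RPA1 also with the mean of its probe sets (0.09, adjusted p = 0.511), and that of RPA3 under 13 of the 19 alternative settings. A further probe set of RPA1 (-0.21, dim at 3.15 in PGC and 3.35 in GSC on average) and of RPA2 (0.26) did not pass.

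The genes that finish the lagging strand did not pass. FEN1, the flap nuclease, measured 7.04, 6.34 and 6.25 in the PGC arrays, against 5.96 to 6.55 in GSC (median 6.16), so only PGC replicate 1 was above the GSC range (0.33, interval -0.07 to 0.73). LIG1, the replicative ligase, averaged 4.16 ± 0.56 in PGC and 4.08 ± 0.32 in GSC (0.09, interval -0.44 to 0.62).

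Of the 21 replication genes that did not pass, 15 were fitted above 0 and 6 below, between -0.37 and 0.48, and for 15 of them the 95% interval lay within a 1.5-fold change either way. The SD was larger in PGC than in GSC for 29 of the 39 genes and the fit uses 1 residual spread for both fractions.

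**Figure D4:**
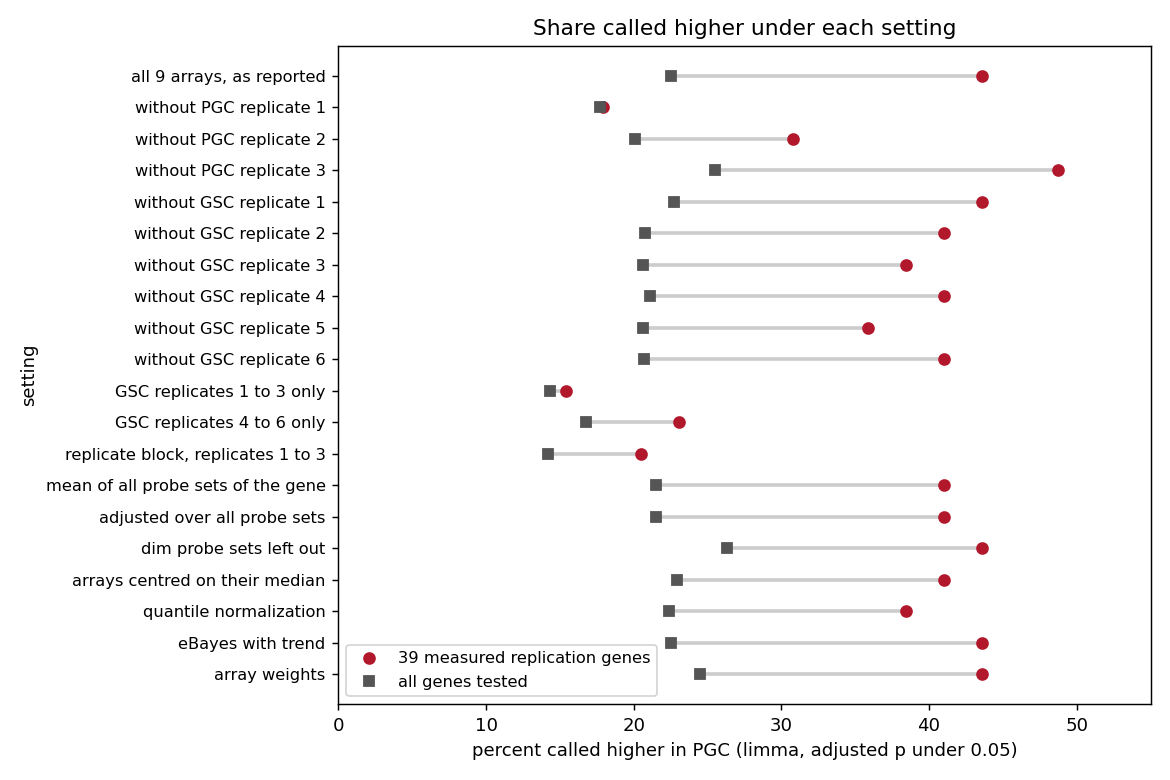
Share of genes called higher in PGC under each setting, for the 39 measured replication genes (red circles) and for all genes tested (grey squares). The red circle lies at 43.6% against 22.5% with all 9 arrays, and comes down to the grey square without PGC replicate 1 (17.9% against 17.7%) and nearly so with GSC replicates 1 to 3 only (15.4% against 14.3%).

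Genes that act around these complexes were described by 6 further lists, of which 117 of 135 genes were measured. Over the lists together 39 were higher in PGC and 15 lower, shares of 33.3% and 12.8% beside 22.5% and 19.5% of all genes. Dim genes are part of the shares over all genes here too. Among genes whose mean lay within the range of the replication genes' means, 27.5% were higher and 25.8% lower. That range was not set by the lists. Without PGC replicate 1, 25 of the 117 were higher and 9 lower, beside 17.7% and 14.7% of all genes. In the list of firing and fork factors 10 of 25 were higher (40%) and 5 lower (20%), with a median change of 0.16. Beside DBF4, BLM, a helicase that resolves stalled or joined strands, measured 7.72, 7.51 and 7.20 in PGC, against 6.46 to 6.72 in GSC (0.89 ± 0.13 SE, limma adjusted p = 2.17e-04). DSCC1, a subunit of the alternative clamp loader that acts in sister chromatid cohesion, was lower, with 5.27, 6.25 and 6.28 in PGC and 7.37 to 7.69 in GSC (-1.63 ± 0.20, adjusted p = 8.60e-05). Its partners CHTF18 (-0.27) and CHTF8 (-0.11) did not pass. The topoisomerase gene TOP2B was 2.41-fold lower in PGC (-1.27 ± 0.16, adjusted p = 9.14e-05). TOP1 (-0.79) and TOP2A (-0.70), which relieve the twist ahead of a fork, were called lower as well, beside 19.5% of all genes. Both were picked after their values were seen, and the other probe set of TOP2A is not described here.

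Nucleotide supply genes were higher in 9 of 23 (39.1%, against 22.5% of all genes) and lower in 2 (8.70%, against 19.5%). Their median was 0.29. PPAT, the first enzyme of purine synthesis, measured 8.68, 8.74 and 8.04 in PGC, against 7.08 to 7.34 in GSC (1.27 ± 0.15 SE, limma adjusted p = 6.72e-05). CTPS2, which makes CTP, was 2.34-fold higher (1.22 ± 0.25), RRM2B, a ribonucleotide reductase subunit that works outside S phase, 1.98-fold (0.99 ± 0.15), and SAMHD1, which breaks dNTPs down, 1.83-fold (0.87 ± 0.11). The remaining genes called higher were TK2 (0.84), TYMS (0.73), CTPS1 (0.69), ADSL (0.64) and DCK (0.58). Those called lower were DTYMK (-0.42) and PAICS (-0.38). The S-phase reductase subunit RRM2, picked after its value was seen, did not pass, at 9.20 ± 0.05 in PGC and 8.97 ± 0.18 in GSC (0.24, interval -0.02 to 0.50).

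Genes that control entry into S phase were higher in 12 of 29 (41.4%, against 22.5% of all genes) and lower in 5 (17.2%, against 19.5%). Their median was 0.18, and 3 of the 29 lay below background on every array. RB1, the retinoblastoma protein that restrains E2F factors, measured 5.33, 5.57 and 6.29 in the PGC arrays, against 6.97 to 7.22 in GSC. It was 2.53-fold lower in PGC (-1.34 ± 0.18 SE, limma adjusted p = 1.41e-04). Another probe set of RB1 was called lower (-1.42) and a further one was not called (-0.27). CDK6 (-1.30 ± 0.15), a kinase that acts on RB1, was lower too. Its D-type cyclin partners differed in direction, with CCND1 lower (-0.93 ± 0.20) and CCND2 (0.40 ± 0.08) and CCND3 (0.83 ± 0.14) higher. The E-type cyclins CCNE1 (0.80 ± 0.18) and CCNE2 (0.56 ± 0.19, limma adjusted p = 0.0354), partners of CDK2, were called higher. For CCNE2, PGC replicate 3 (5.97) lay inside the GSC range of 5.13 to 6.00. CCND2, CCND3, CCNE1 and CCNE2 each had further probe sets, which are not described here. E2F8, an atypical E2F that represses its targets, was higher by 0.95 ± 0.22 (7.32, 7.52 and 6.34 in PGC, against 5.90 to 6.29 in GSC), with 1 of its other probe sets not called (0.10).

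In the list of histone and DNA methylation handling at the fork, 4 of 11 were higher and 1 lower. Those shares are 36.4% and 9.09%, against 22.5% and 19.5% of all genes. HELLS, a chromatin remodeller that supports DNA methylation, measured 10.98, 11.00 and 10.15 in PGC, against 8.50 to 8.84 in GSC, a 4.12-fold difference (2.04 ± 0.17 SE, limma adjusted p = 7.15e-06) and the largest in the 6 lists. DNMT1, the maintenance methyltransferase, was higher by 0.67 ± 0.18, with PGC replicate 2 (4.73) inside the GSC range of 4.46 to 4.74, and the call was lost without PGC replicate 1 (0.59). ASF1A, a histone chaperone, was higher by 0.47 ± 0.12. SLBP, which binds histone mRNA, was higher by 0.40 ± 0.12, which was no longer called when PGC replicate 1 (0.34) or 2 (0.30) was left out. In SLBP, PGC replicate 3 (6.80) lay inside the GSC range of 6.59 to 6.88.

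Checkpoint genes were higher in 4 of 14 (28.6%, against 22.5% of all genes) and lower in 1 (7.14%, against 19.5%). RAD1, a subunit of the checkpoint clamp, measured 6.64, 6.56 and 6.16 in PGC, against 4.89 to 5.53 in GSC (1.25 ± 0.17 SE, limma adjusted p = 1.41e-04). HUS1, its partner in that clamp, was higher by 0.67 ± 0.18, with PGC replicate 2 (4.36) inside the GSC range of 3.79 to 4.37. The other probe set of HUS1, which lay below background on average, was not called (0.02). RAD17, which loads the checkpoint clamp together with the small RFC subunits, was higher by 0.97 ± 0.25 (0.70 without PGC replicate 2, where its call was lost). PGC replicate 3 (5.50) stood at the top of the GSC range of RAD17 (5.03 to 5.50). WEE1, a kinase that holds back CDK1, was higher by 0.62 ± 0.17 (0.48 without PGC replicate 1 and 0.48 without PGC replicate 2, neither called). Its PGC replicate 3 (9.25) lay inside the GSC range of 9.17 to 9.25.

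Mitotic genes gave 0 of 15 higher and 1 lower (1 and 5 at an unadjusted p under 0.05, limma), with a median of -0.17. Shares called over all genes were 22.5% and 19.5%. CDK1, the mitotic kinase, lay at 10.16 on average in both fractions (10.21, 10.11 and 10.16 in PGC, against 10.12 to 10.24 in GSC, interval -0.19 to 0.18). MKI67, the gene of the proliferation antigen Ki-67, averaged 7.30 ± 0.66 in PGC against 7.98 ± 0.29 in GSC (not called, -0.68, adjusted p = 0.0513). CENPE, a kinetochore motor, was called lower (-0.77 ± 0.28, adjusted p = 0.0471), with 5.61, 4.36 and 4.01 in PGC and 5.29 to 5.81 in GSC, and PGC replicate 1 lay inside the GSC range. The call was lost when any 1 array other than PGC replicate 1 was left out, and the other probe set of CENPE was not called (-0.28).

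**Figure D5:**
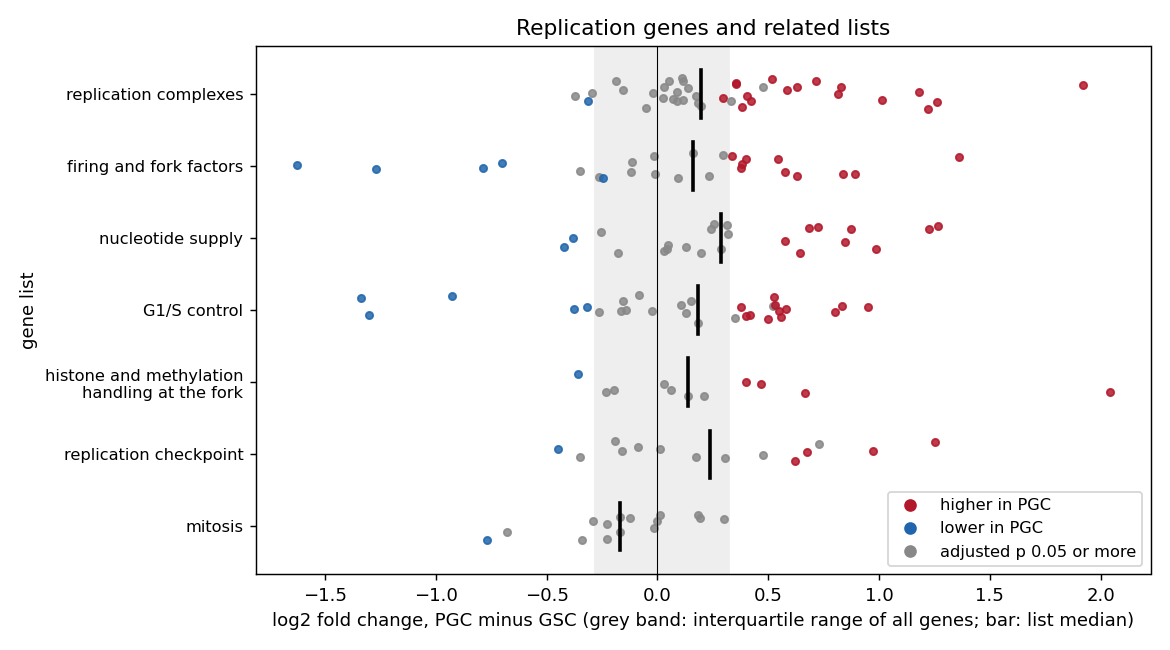
Log2 fold change of PGC over GSC for each measured gene of the replication complexes and of the 6 related lists, with the list median as a black bar and the interquartile range of all genes (-0.28 to 0.32) in grey. Red genes were called higher and blue genes lower; the medians run from -0.17 (mitosis) to 0.29 (nucleotide supply), all inside the grey band.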

How the data were processed

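Expression was measured in 3 PGC and 6 GSC preparations. The deposited values were 1 log2 value per probe set and array, made by the authors with RMA per the submitters' processing notes; the sources used here give no version of it, and the log2 scale was taken from the range of the values. RMA compresses low values, so folds of dim genes are understated. For arrays, their number limits the precision.

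Of 38535 probe sets, 96 AFFX controls were left out. The platform annotation gave 1 symbol for 27168 of the 38439 tested, several for 177 and none for 11094. For 38 of the 39 members a RefSeq gene table (GRCg7b, used for names only) gave the same symbol for the platform's gene ID; for POLD2 that ID was not matched. Of the members, 17 had over 1 probe set and 21 rested on a probe set whose name ends in s_at, which can match more than 1 transcript. The background level was the 95th percentile of the 57 RPTR reporter probe sets, 2.88, and all 39 members lay above it on every array. The fit was limma's lmFit and eBayes (version 3.58.1, under R 4.3.3) on fraction alone, two-sided, with Benjamini-Hochberg adjustment over 13009 genes, after tests on simulated data. Those simulated data had the same spread in both fractions, so they cannot show how the fit does where PGC spread more. Deviations of same-numbered PGC and GSC arrays from their means over replicates 1 to 3 correlated at 0.19, -0.13 and -0.01. With so few arrays, each set centred on its own mean, these values cannot decide whether same-numbered arrays pair.

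The members and lists were chosen with earlier results of these data known. Named were all members, up to 4 called genes of each related list with the largest change, the marker DDX4, and, picked after their values were seen, CHTF18, CHTF8, TOP1, TOP2A, RRM2, CCND2, CCND3, CCNE1, CCNE2, CDK1, MKI67, GATA3, EMCN and SPI1. The remaining called genes of the nucleotide supply list were also named after their values were seen. Alternatives left out each array, used 3 GSC arrays, blocked on replicate number, or changed probe set choice, filter, scaling, prior or weights.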

Additional observations from a re-analysis of the deposited data

Results flagged for a closer look

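Of 60 genes (39 replication genes and 21 genes of the related lists) checked for a GSC array far from the other 5, 1 was found. That is fewer than chance gives, at about 1 in 20 of the genes checked. PRIM2 measured 3.51 in GSC replicate 3, and the next GSC array stood at 4.43, a gap of 0.70 of the whole GSC range. The fold change of PRIM2 stayed called without that array.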

How the results depend on the processing

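The cause of the differences below was not tested. The 19 alternatives left out each array, used GSC replicates 1 to 3 or 4 to 6 only, added a replicate block, or changed probe set choice, adjustment, dim filter, scaling, variance prior or array weights. Fewer arrays remained with only GSC replicates 1 to 3, calling 1863 of all genes higher and 1531 lower. A replicate block over those arrays gave 1845 and 1287, where all 9 arrays gave 2923 and 2543. Replication genes called higher numbered 6 and 9 with GSC replicates 1 to 3 or 4 to 6 only, and 8 with the replicate block. Those shares of 15.4%, 23.1% and 20.5% stood beside 14.3%, 16.8% and 14.2% of all genes. With single arrays left out, 7 to 19 were called higher (17.9% to 48.7%), beside 17.7% to 25.5% of all genes. With GSC replicates 1 to 3 or 4 to 6 only and with the block, 0 were called lower, beside 11.8%, 13.7% and 9.89% of all genes. The number called lower was 0 with the mean of all probe sets and 3 with array weights, beside 19.6% and 21.8% of all genes. It was 0 to 3 when single arrays were left out, beside 14.7% to 22.9% of all genes. Of the 117 measured genes of the related lists, 19, 23 and 17 were higher with GSC replicates 1 to 3, 4 to 6 and the replicate block. Under those settings 14.3%, 16.8% and 14.2% of all genes were higher. The lists had 7, 9 and 7 lower, beside 11.8%, 13.7% and 9.89% of all genes. Leaving out single arrays gave the lists 25 to 51 higher, beside 17.7% to 25.5% of all genes. It gave them 8 to 20 lower, beside 14.7% to 22.9% of all genes. Whether replicate numbers pair the arrays could not be told, and the block also left out GSC replicates 4 to 6. Why calls were lost under the block was not tested. The 17 genes called higher and GINS3 kept their direction under all 19. Signs turned only in genes that did not pass: with GSC replicates 1 to 3 only and with the block alike MCM10 (-0.10), CDC45 (0.0798), PCNA (-0.0388) and LIG1 (-0.14), with GSC replicates 4 to 6 only ORC1 (-0.032) and PRIM1 (0.0049), with array weights CDC45 (0.0258) and LIG1 (-0.18), with the mean of probe sets MCM10 (-0.20), with quantile normalization GMNN (-0.031) and with centred arrays PRIM1 (0.0018). Single arrays left out gave ORC1 -0.0601 to 0.17, MCM10 -0.0399 to 0.22, CDC45 -0.16 to 0.0357, GMNN -0.0075 to 0.0416, PRIM1 -0.21 to 0.17, POLE -0.28 to 0.0155, POLE3 -0.0885 to 0.15 and LIG1 -0.17 to 0.38.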
